A study of Mus musculus with 15 samples.

Results

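The naive pluripotency factors described here were 10 transcription regulators of mouse embryonic stem cells (ESCs), chosen by name: Klf2, Klf4, Klf5, Tfcp2l1, Esrrb, Nr0b1, Prdm14, Tbx3, Zfp42 and Nr5a2. All 10 were found among the 26061 genes of the deposited expression table, Tfcp2l1 under its older symbol Tcfcp2l1, and all 10 were among the 19490 genes that passed the filter on low values. The RNA came from E14 cells, an ESC line of the 129/Ola strain background grown without feeder cells in serum and leukaemia inhibitory factor (LIF). The cells carried 1 of 3 short hairpin RNAs from a lentiviral pLKO.1 vector: a non-targeting hairpin (shScr), a hairpin against Tet1 (shTet1) or a hairpin against Tet2 (shTet2). Each group held 5 libraries of total RNA depleted of rRNA. All 3 groups shared the virus, the puromycin selection and collection 3 days into it, each target had 1 hairpin. RNA was extracted in either of a pair of ways, and which library had which is not labelled.

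Naive pluripotency is the state of the epiblast before implantation, which mouse ESCs keep in culture when LIF activates STAT3. A set of transcription factors around Pou5f1, Sox2 and Nanog holds this state and is switched off when cells move on to the formative and primed epiblast. Klf4, Klf5, Tfcp2l1 and Tbx3 act downstream of LIF signalling, Esrrb is held down by the repressor Tcf7l1 until Wnt signalling relieves it, and Prdm14 keeps de novo DNA methyltransferases and FGF receptor signalling low. TET1 and TET2 oxidise methylated cytosine in DNA, so that the comparisons here asked how far the RNA of these factors depends on either enzyme.

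Gene reads ranged from 15258291 to 35432425 per library. Values are given on the variance-stabilised log2 scale of the deposited table, on which 1 unit is close to a doubling for well-covered genes and 4.25 stands for 0 reads. Differences between groups were tested with limma, with Benjamini-Hochberg adjustment over all genes tested, and "called" below means an adjusted p-value under 0.05. Tet1 was lower in shTet1 than in shScr by 1.84 (SE 0.19, adjusted p = 0.000228), at 27.8% of the normalised reads, with values of 11.93 to 12.41 against 13.68 to 14.25. Tet2 was lower in shTet2 than in shScr by 1.90 (SE 0.13, adjusted p = 3.67e-07), at 26.6% of the normalised reads, with values of 11.12 to 11.61 against 13.15 to 13.52. Within groups, replicates 1 and 2 stood apart from replicates 3 to 5 on the first principal component of the deviations from the group means (37.9% of variance). The share of reads in olfactory and vomeronasal receptor genes was also apart in 4 libraries (shScr replicate 4, shTet1 replicates 3 and 4, shTet2 replicate 4; 53.3 to 63.4 reads per 1000000 gene reads, or RPM, against 9.43 to 26.3 in the other 11). Nothing in the labels says whether the libraries of a group came from separate cultures, so p-values measure only the spread between these libraries. In bulk RNA, fewer cells that express a gene and less RNA per cell cannot be told apart.

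The ESC label was checked against marker genes. Pou5f1, Sox2 and Nanog had at least 3681 reads in every library, whereas the trophoblast markers Cdx2, Elf5 and Hand1 had at most 10, 7 and 17, and the mesoderm markers T, Mixl1 and Mesp1 at most 17, 31 and 7. The primitive endoderm markers Gata4, Gata6 and Sox17 were present in every library, at 6 to 95, 17 to 131 and 8 to 60 reads. Of the neural markers, Neurog2 had at most 2 reads but Pax6 had 94 to 277 in every library. The 7 neural markers summed to 69.9 to 114 RPM in shScr, 90.4 to 116 in shTet1 and 79.6 to 141 in shTet2, and the 12 trophoblast markers to 67.1 to 89.2, 57.3 to 142 and 65.4 to 137. Of 8 ESC markers 1 was called, Fgf4 in shTet2 against shTet1 (with the replicate number as a block also Lin28a and Dppa5a there, and Lin28a in shTet1 against shScr).

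Levels were compared between genes only per length, as RPKM, the reads per kb of exon per 1000000 gene reads. Zfp42 (also called Rex1), a zinc finger gene used as a marker of the naive state, was the most abundant member. Its mean RPKM was 575 ± 62.3 for shScr, 600 ± 67.8 for shTet1 and 523 ± 99.3 for shTet2 (n = 5, SD). In shScr that level was above 99.6% of the 19273 genes tested that had a length. Next in shScr came Nr0b1 at 79.0 ± 26.2, Esrrb at 50.5 ± 14.4, Tfcp2l1 at 47.8 ± 14.4 and Klf4 at 45.9 ± 16.6. Lower levels were those of Klf5 (37.4 ± 18.4), Klf2 (35.8 ± 13.2), Nr5a2 (27.2 ± 2.05), Tbx3 (21.0 ± 11.5) and Prdm14 (8.35 ± 3.01). Even Prdm14 had 227 to 888 reads per library, and no other member had fewer than 538, so that counting error was small beside the spread described below. In this order, the ranges of neighbours in shScr did not overlap only between Zfp42 and Nr0b1 and between Tbx3 and Prdm14. The 8 genes from Nr0b1 to Tbx3 formed an overlapping series there, and in every group Zfp42 was first, Nr0b1 second, Tbx3 ninth and Prdm14 last. Dividing by the longest transcript in place of all exons put Esrrb above Nr0b1 in shTet1 and shTet2.

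**Figure D1:**
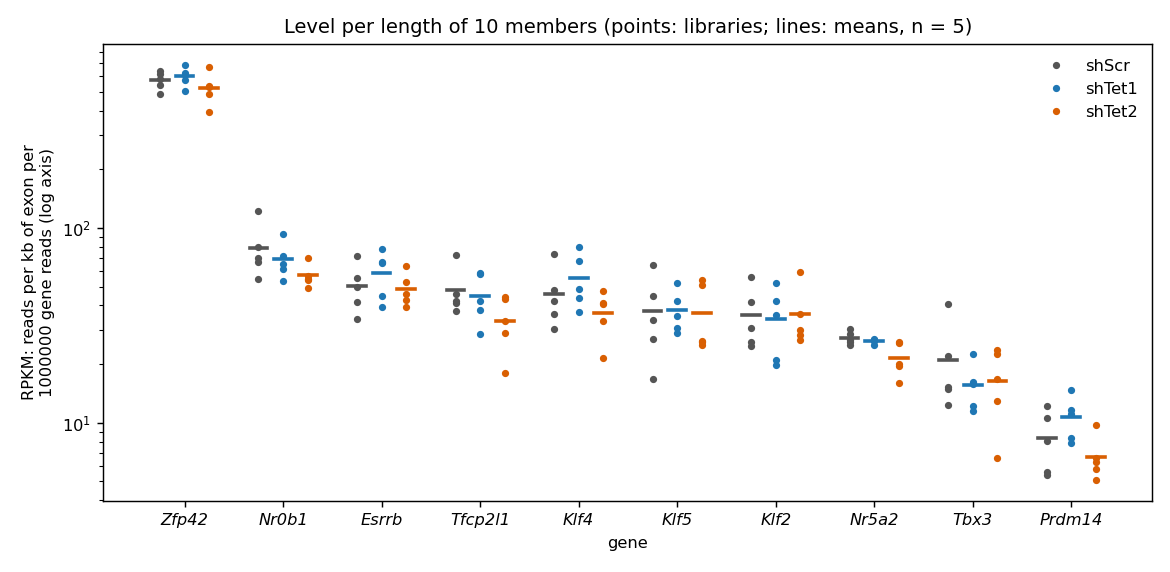
Level per length of the 10 members, as RPKM (reads per kb of exon per 1000000 gene reads) on a log axis, with a point for each library and a line for each group mean (n = 5). Zfp42 was at 393 or above in every library, Nr0b1 was next, and Prdm14 was lowest in all 3 groups.

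All members are protein-coding genes of the GENCODE vM1 annotation of mm9. Their gene bodies lie at chr8:74842932-74845555 (Klf2), chr4:55540013-55545347 (Klf4), chr14:99697910-99712624 (Klf5), chr1:120524522-120581744 (Tfcp2l1), chr12:87702067-87862578 (Esrrb), chrX:83437103-83441286 (Nr0b1), chr1:13103538-13117244 (Prdm14), chr5:120120678-120134733 (Tbx3), chr8:44380422-44392363 (Zfp42) and chr1:138740161-138857004 (Nr5a2). No member shared a stretch of 50 bases with a coding transcript of another gene. Only 1.40% of the Tfcp2l1 exons overlapped another gene on the same strand (a U1 gene) and 2.14% of the Tbx3 exons overlapped Gm2301 on the opposite strand. Stretches shared with noncoding genes or pseudogenes were not searched for.

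Promoter sequence around the transcription start (RefSeq, GRCm38.p6) was at hand for 7 of the 10 members, and not for Klf5, Prdm14 and Tbx3. It came as 9 promoters of 300 bases each, and the counts and matches below cover these bases only. Because TET enzymes act on CpG sites, CpGs were counted: 40 in the Klf4 promoter, 32 in Klf2, 21 in Tfcp2l1, 14 in Nr0b1, 11 in Zfp42, 7 in each of the pair for Esrrb, and 2 and 7 in the pair for Nr5a2. The median over all 32851 promoters was 7, so that the promoters of Klf4, Klf2 and Tfcp2l1 were CpG-rich and those of Esrrb and Nr5a2 were not. The sites of factors in this network were searched on both strands as exact letters: the CACCC box of Krüppel-like factors (CCACACCC), the octamer bound by POU5F1 (ATGCAAAT), the STAT site (TTCNNNGAA), the extended nuclear receptor site (AAGGTCA) and the T-box site (AGGTGTGA). The CACCC box and the reverse strand of the T-box site share the letters CACACC. Of the 9 member promoters, 1 held the CACCC box (3.56% of all promoters did), 1 the octamer (1.74%), 1 the STAT site (8.30%) and none the nuclear receptor site (4.72%) or the T-box site (1.28%). The 3 matches are shown with 10 bases on each side and the match in capitals; Zfp42 held the CACCC box at position −75 and the octamer, on the opposite strand, at −186 from its start, at chr8:43307067-43307094 and chr8:43307178-43307205 (minus strand). The first Esrrb promoter held the STAT site at position −178, at chr12:86360929-86360957 (plus strand).
Zfp42 CACCC box: acatccccgcCCACACCCaccttgagcg
Zfp42 octamer: ctgaagaggcATTTGCATaactgagcaa
Esrrb STAT site: aacggaaactTTCGTGGAAagcacttgag
These are matches of letters, and no binding was measured here.

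With Tet1 depleted, the members moved in neither direction together. None of the 10 was called between shTet1 and shScr, where 0.0718% of all genes were (14 of 19490), and none had an unadjusted p-value under 0.05, where 11.8% of all genes did. No member had groups that did not overlap, as 2.62% of all genes had. The differences were above 0 for 5 members and below 0 for 5, with a median of −0.036 beside 0.013 over all genes tested, of which 47.6% were below 0. With the replicate number as a block, a fit that called 4.8% of all genes (935), again no member was called. The 3 Krüppel-like factors, zinc finger activators that occupy many of the same sites in ESCs, differed by −0.14 for Klf2 (95% confidence interval −0.68 to 0.41), 0.23 for Klf4 (−0.26 to 0.73) and 0.077 for Klf5 (−0.52 to 0.68). For Tfcp2l1, a CP2-family factor, the difference was −0.14 (−0.64 to 0.36), and for Tbx3, a T-box factor, −0.37 (−1.04 to 0.30). The nuclear receptors differed by 0.18 for Esrrb (−0.21 to 0.57), −0.21 for Nr0b1 (−0.58 to 0.16) and −0.090 for Nr5a2 (−0.41 to 0.23). Prdm14, a PR-domain zinc finger protein, had the highest positive value, at 0.33 (−0.12 to 0.77), and Zfp42 the smallest difference, at 0.018 (−0.29 to 0.33). The intervals of 9 members exclude a change of 1 unit in either direction, and that of Tbx3 includes one downwards.

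With Tet2 depleted, all 10 members had a lower mean than in shScr. The median difference was −0.35 beside 0.038 over all genes, of which 43.2% had a difference below 0. No single member was called without the block, where 0.39% of all genes were (76 of 19490, 43 higher and 33 lower). Over all genes, 5 were called as higher and 34 as lower when libraries were centred on their medians. Of the members, 3 had an unadjusted p-value under 0.05 in the downward direction (Nr0b1, Nr5a2 and Tfcp2l1), where 3.58% of all genes did. The groups overlapped for every member, and did not for 2.7% of all genes. Same-numbered libraries of these groups did not all deviate together (r = 0.0079 for replicate 3 and 0.40 to 0.77 for the other numbers). The members' values for shTet2 against shScr below are therefore from the fit without the block. With the block, which called 840 of 19490 genes, Nr0b1 (limma adjusted p = 0.0229) and Nr5a2 (0.0403) were called. With the block and only these groups fitted, no member was called. Other calls that a block would add stand with the alternative settings. The common direction leaned on single libraries. shScr replicate 4 was the highest of its group for 8 of the 10 members and shTet2 replicate 1 the lowest of its group for 8 of the 10. Without shScr replicate 4 the median difference was −0.21 with 7 members lower, and without shTet2 replicate 1 it was −0.18 with 8 lower. With the recovered reads scaled by total gene reads, Klf2 and Klf5 came out above 0 (0.013 to 0.014) and the other 8 stayed below 0.

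**Figure D2:**
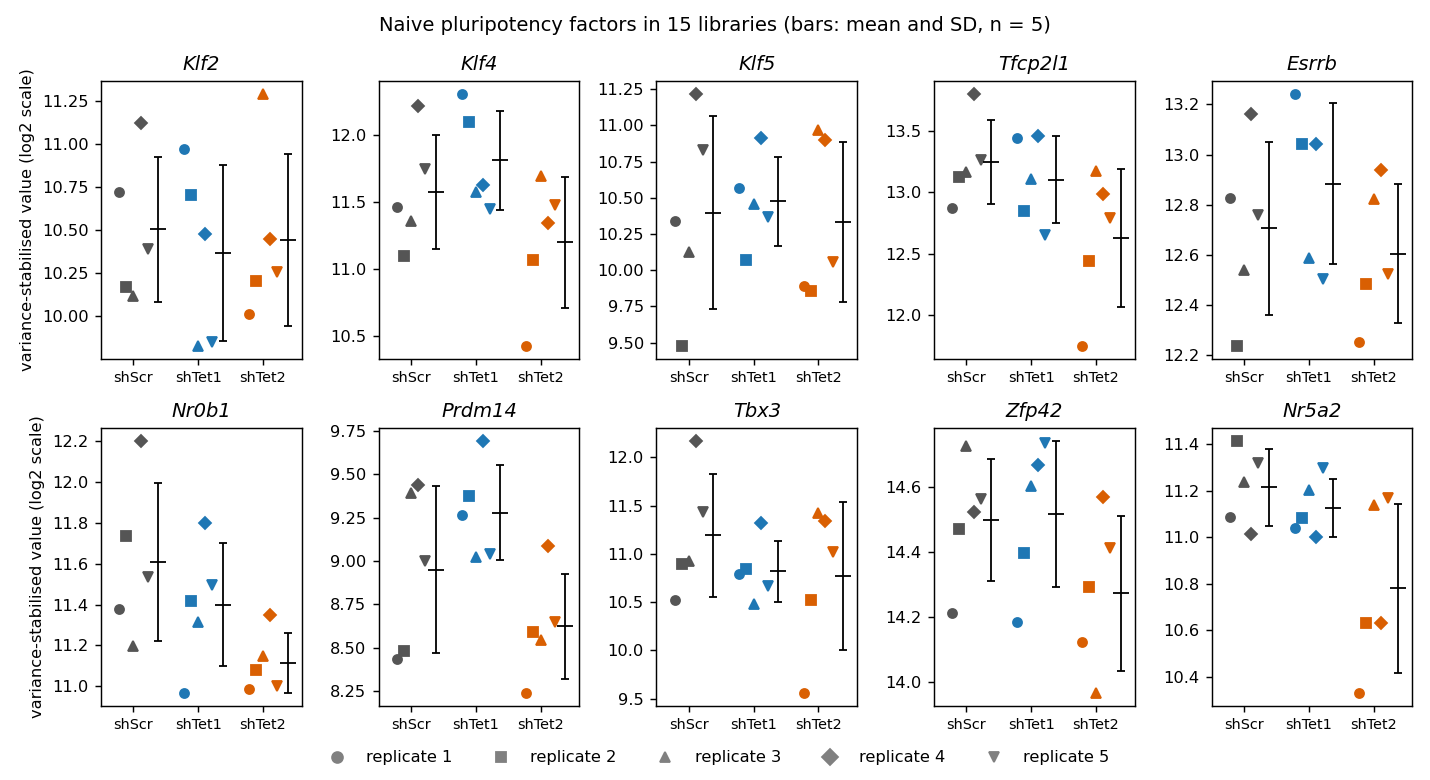
Variance-stabilised values (log2 scale) of the 10 members in the 15 libraries, with marker shapes for replicate numbers and black bars for the mean and SD of each group (n = 5). For Nr0b1, 4 of the 5 shTet2 libraries lay below all shScr libraries, and for Prdm14, 4 of the 5 lay below all shTet1 libraries.

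Among the nuclear receptors, Nr0b1 (Dax1), which lacks a classical DNA-binding domain and acts by binding other factors, showed the narrowest shTet2 group. Replicates 1 to 5 of shScr read 11.38, 11.73, 11.20, 12.20 and 11.53, those of shTet1 read 10.97, 11.42, 11.32, 11.80 and 11.50, and those of shTet2 read 10.99, 11.08, 11.15, 11.35 and 11. Only the highest shTet2 library, replicate 4, reached into the shScr range, above shScr replicate 3, and shTet2 was the lower in all 5 same-numbered pairs. Between shTet2 and shScr the difference was −0.49 (SE 0.18, 95% confidence interval −0.86 to −0.13, unadjusted p = 0.0113, limma adjusted p = 0.248), and the two-sided exact permutation p was 0.0159, where 0.00794 is the smallest that 5 against 5 libraries allow. Normalised reads were 68.8% of those in shScr.

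Nr5a2 (Lrh1), a nuclear receptor that activates Pou5f1, gave 11.09, 11.42, 11.24, 11.01 and 11.32 with the control hairpin and 11.04, 11.08, 11.20, 11 and 11.30 with the Tet1 hairpin. With the Tet2 hairpin it gave 10.33, 10.63, 11.14, 10.63 and 11.17. The shTet2 libraries fell into replicates 1, 2 and 4, below every library of the other groups, and replicates 3 and 5, inside their ranges. The difference from shScr was −0.43 (SE 0.15, unadjusted p = 0.0110, limma adjusted p = 0.246, exact permutation p = 0.0556), and normalised reads were 75.1% of those in shScr. Esrrb, the other nuclear receptor, ranged from 12.24 to 13.16 in shScr and from 12.25 to 12.94 in shTet2, and its difference of −0.10 (95% confidence interval −0.49 to 0.29) lay within the spread.

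Tfcp2l1 gave the most negative difference from shScr of the 10 members. In replicate order, the shScr libraries held 12.87, 13.12, 13.16, 13.80 and 13.26, the shTet1 libraries 13.44, 12.85, 13.11, 13.46 and 12.65, and the shTet2 libraries 11.75, 12.44, 13.17, 12.98 and 12.79. The groups overlapped, with 3 of 5 shTet2 libraries below all shScr libraries and replicate 1 far below the rest. The difference of −0.62 (SE 0.24, unadjusted p = 0.0178, limma adjusted p = 0.296, exact permutation p = 0.0635) shrank to −0.40 without that library. The other members downstream of LIF differed by −0.42 for Tbx3 (95% confidence interval −1.09 to 0.25), −0.37 for Klf4 (−0.87 to 0.12) and −0.062 for Klf5 (−0.66 to 0.54). Without shTet2 replicate 1 Tbx3 was at −0.12 and Klf4 at −0.18, and without shScr replicate 4 they were at −0.17 and −0.21. Klf2 differed by −0.061 (−0.61 to 0.48). Zfp42 differed by −0.23 (−0.53 to 0.08) and Prdm14 by −0.33 (−0.77 to 0.12), or by −0.22 without shScr replicate 3 and −0.20 without shScr replicate 4.

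**Figure D3:**
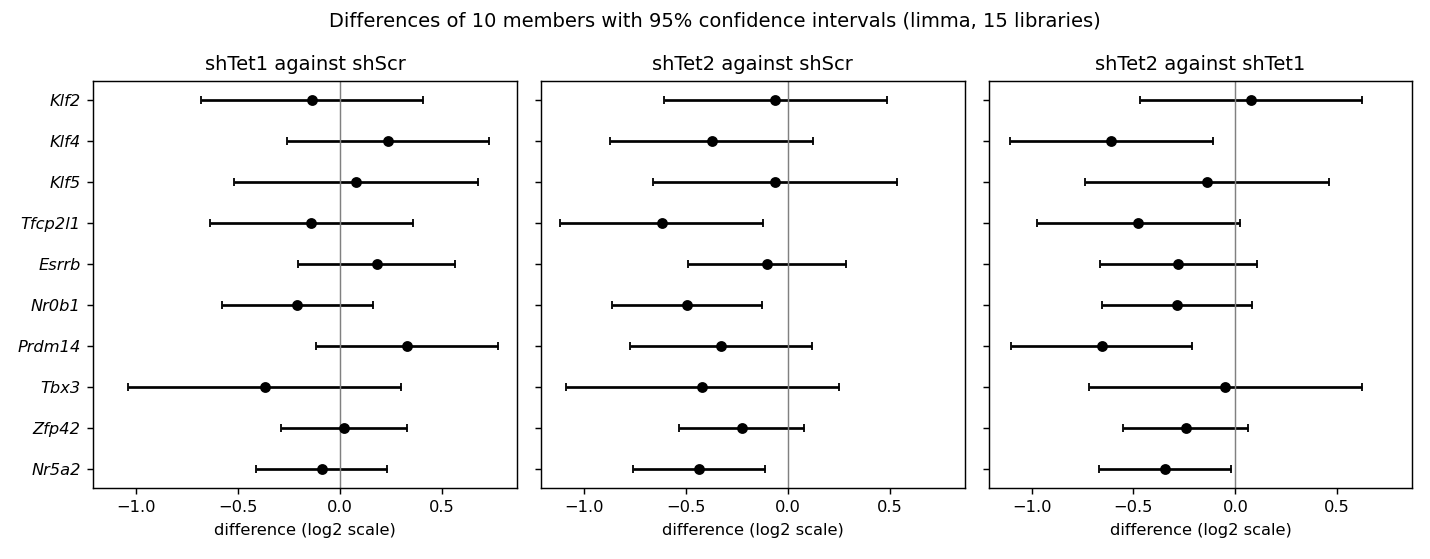
Differences between group means (log2 scale, points) of the 10 members in the 3 comparisons, with 95% confidence intervals from limma over 15 libraries as bars and a line at 0. In shTet2 against shScr all 10 points lie below 0, and the intervals of Tfcp2l1, Nr0b1 and Nr5a2 end below it.

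When the depletions were compared directly, Prdm14 had the lowest p-value of the 10 members. It was not called in the fit without a block (adjusted p = 0.0977) and was called with the replicate number as a block (adjusted p = 0.0113); same-numbered libraries of these groups deviated together. No other member was called in either fit, against 4.24% of all genes without the block (827 of 19490) and 11.2% with it (2178). The 1 call among 10 members with the block was thus no more than the share over all genes. At an unadjusted p-value under 0.05 stood 3 members, Prdm14, Klf4 and Nr5a2, all lower in shTet2, where 6.37% of all genes were lower at that threshold. Again the groups overlapped for every member (they did not for 6.04% of all genes). Of the 10 members 9 had a lower mean in shTet2, as had 47.3% of all genes, and the median difference was −0.28 beside 0.015 over all genes. These values and those of the comparisons with shScr rest on shared libraries and are not independent of each other.

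For Prdm14, shScr replicates 1 to 5 were at 8.43, 8.48, 9.39, 9.44 and 9.0, shTet1 replicates at 9.26, 9.37, 9.02, 9.69 and 9.04, and shTet2 replicates at 8.24, 8.59, 8.54, 9.09 and 8.65. The shTet2 library of each number was below the shTet1 library of the same number in 5 of 5 pairs, and 4 of 5 shTet2 libraries were below all shTet1 libraries. The shScr libraries spanned both other groups, with replicates 1 and 2 at the level of shTet2 and replicates 3 and 4 at that of shTet1. Between shTet2 and shTet1 the difference was −0.66 (SE 0.21, 95% confidence interval −1.10 to −0.21, exact permutation p = 0.0238), and normalised reads were 61.4% of those in shTet1. With the block, the call held in all 10 fits that left out 1 library each (differences of −0.77 to −0.55, adjusted p-values of 0.00867 to 0.0474). These block fits were not planned and were kept for Prdm14 in this comparison alone. Without the block, none of the 10 fits that left out 1 library called Prdm14.

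Klf4 had a difference nearly as large, −0.61 (SE 0.24, unadjusted p = 0.0192, limma adjusted p = 0.192, exact permutation p = 0.0635), from fewer libraries. From replicate 1 to 5, shTet1 libraries were at 12.30, 12.09, 11.57, 11.62 and 11.45 and shTet2 libraries at 10.43, 11.06, 11.69, 11.34 and 11.48, beside shScr libraries at 11.46, 11.09, 11.35, 12.21 and 11.75. The gap was formed by replicates 1 and 2, while replicates 3 and 5 were slightly higher in shTet2 than in shTet1. Nr5a2 differed by −0.34 (SE 0.15, unadjusted p = 0.0375, adjusted p = 0.274) and was lower in 5 of 5 pairs, and Zfp42, at −0.24 (95% confidence interval −0.55 to 0.06), was also lower in 5 of 5 pairs. For the others the differences were −0.48 for Tfcp2l1 (−0.97 to 0.02; −0.26 without shTet2 replicate 1), −0.29 for Nr0b1 (−0.65 to 0.08), −0.28 for Esrrb (−0.67 to 0.11) and −0.14 for Klf5 (−0.74 to 0.46). Tbx3 (−0.050, from −0.72 to 0.62) and Klf2 (0.076, from −0.47 to 0.62) had intervals centred near 0.

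The split between replicates 1 and 2 and replicates 3 to 5 ran through these results. In shTet2 against shTet1 the members' median difference was −0.75 with all 10 lower in replicates 1 and 2, and −0.069 with 6 lower in replicates 3 to 5. Klf4 went from −1.45 to −0.045 between these sets of libraries, Tfcp2l1 from −1.05 to −0.093 and Esrrb from −0.77 to 0.051. Klf2 (−0.73 and 0.61) and Tbx3 (−0.78 and 0.44) changed sign. Prdm14 was lower in both, by 0.90 and by 0.49. In shTet1 against shScr the same split gave a median of 0.27 with 7 higher, then −0.13 with 1 higher, with Klf4 at 0.92 and −0.22 and Prdm14 at 0.86 and −0.025. In shTet2 against shScr all 10 were lower in replicates 1 and 2 (median −0.43) and 9 in replicates 3 to 5 (median −0.26). Nr0b1 was at −0.52 and −0.48 there, Nr5a2 at −0.77 and −0.21, Tfcp2l1 at −0.91 and −0.43, Prdm14 at −0.043 and −0.52 and Klf2 at −0.33 and 0.12. Whether the sets of libraries differ in these effects was not tested, and the labels do not say what separates them.

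**Figure D4:**
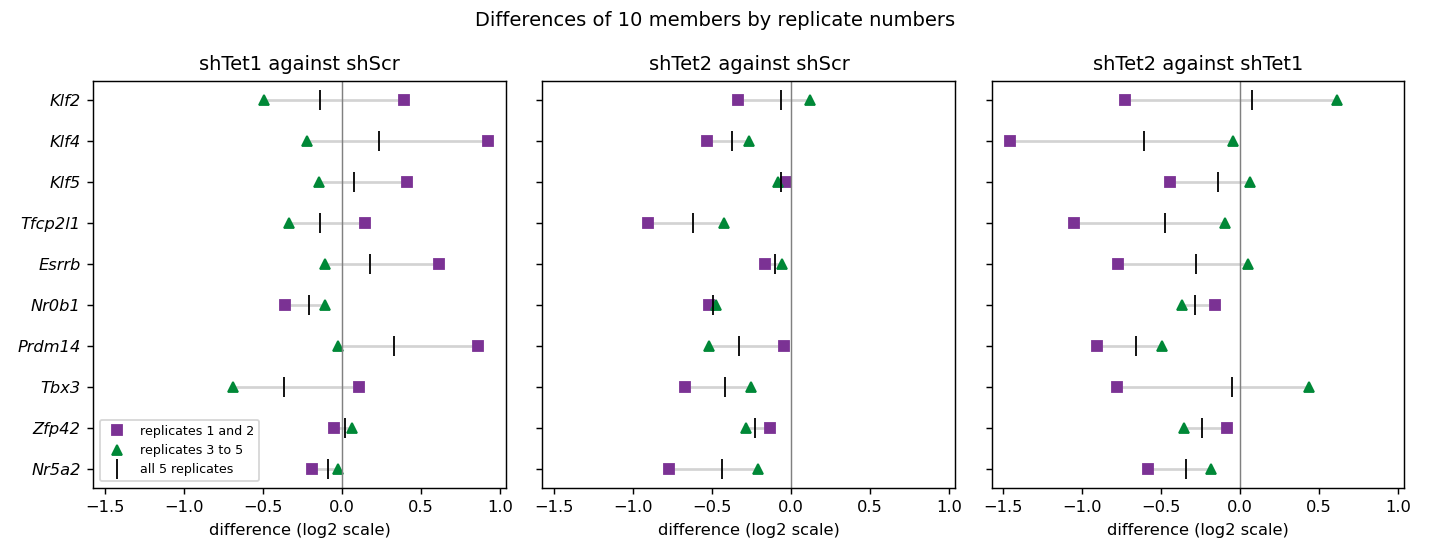
Differences between group means (log2 scale) of the 10 members computed from replicates 1 and 2 (squares), replicates 3 to 5 (triangles) and all 5 replicates (vertical bars) in the 3 comparisons. Nr0b1 keeps its place in shTet2 against shScr (−0.52 and −0.48), whereas Klf4 in shTet2 against shTet1 moves from −1.45 to −0.045.

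Within groups, most members went up and down together from library to library. Over the 15 deviations from the group means, which share libraries and their scaling, the 45 pairs of members had a median Pearson r of 0.45, with 38 positive and 21 over 0.5. These correlations are given as a description. The closest pair was Tfcp2l1 and Tbx3 (r = 0.90), and Klf2, Klf4 and Esrrb formed a tight trio (Klf2 with Esrrb 0.86, Klf4 with Esrrb 0.84, Klf2 with Klf4 0.81). Klf5 was closest to Esrrb (0.76) and Prdm14 to Tbx3 (0.71), whereas Nr0b1 was more loosely tied (median r 0.33). Zfp42 and Nr5a2 stood aside, with median r of 0.061 and 0.0057 to the other members, and Zfp42 ran opposite to Klf2 (−0.59). In shTet2 replicate 1 all 10 members were below the group mean (mean deviation −0.52), and in shScr replicate 4 there were 9 above it (0.50). The latter is among the 4 libraries with a high receptor share, and without these 4 the median difference of the members between shTet2 and shScr was −0.31 with 8 lower.

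**Figure D5:**
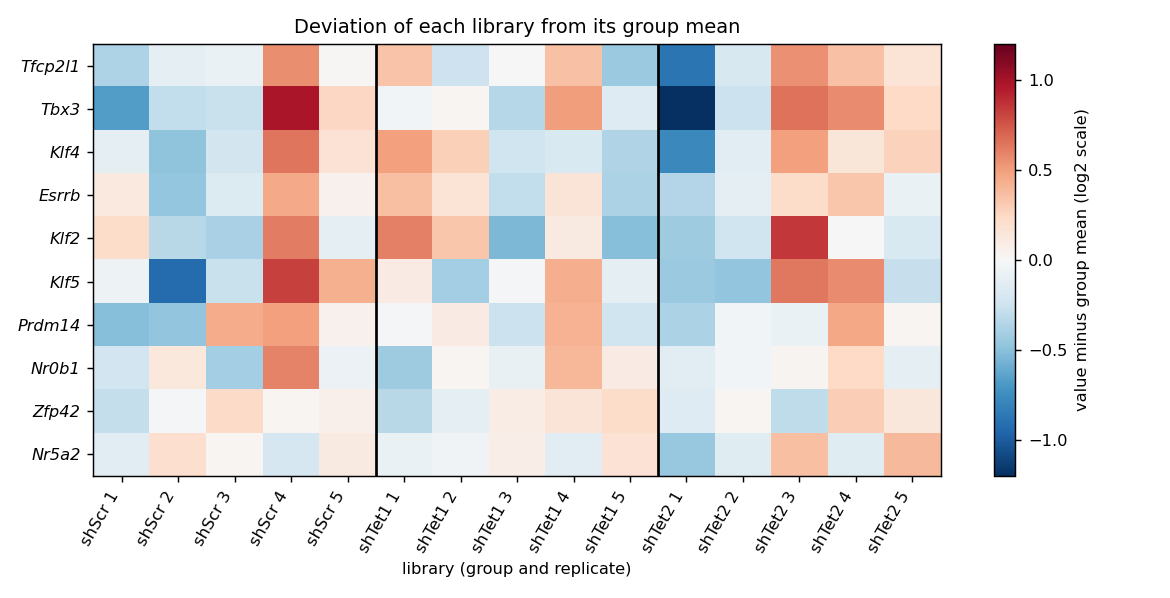
Deviation of each library from its group mean (log2 scale, colour) for the 10 members in rows and the 15 libraries in columns, ordered by group and replicate. shTet2 replicate 1 is below the mean in all 10 rows and shScr replicate 4 above it in 9, while Zfp42 and Nr5a2 follow the other rows least.

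The genes whose values ran most like the mean of the members over the 15 libraries were Grik3 (r = 0.97), Trip11 (0.91) and Ppp1r15b (0.91), out of 7422 well-covered candidates. On deviations from the group means Grik3 was again first (0.98), followed by Dsg2 and Arid5b. None of these 5 genes was called in any comparison; Grik3 differed by −0.33 between shTet2 and shScr (SE 0.28, adjusted p = 0.728).

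The core factors that the naive factors work with were examined next. None of Pou5f1, Sox2, Nanog and Sall4 was called in any comparison, with or without the block. The means of Pou5f1 were 14.20 ± 0.40 for shScr, 14.10 ± 0.27 for shTet1 and 13.89 ± 0.21 for shTet2 (n = 5, SD). Sox2 was at 13.67 ± 0.26, 13.95 ± 0.29 and 13.71 ± 0.19, and Nanog at 12.97 ± 0.49, 13.19 ± 0.26 and 12.78 ± 0.55 in the same order.

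The 10 genes examined of the LIF and STAT3 pathway (receptors, kinase, transducer and direct targets) gave no call without the block. Between shTet2 and shTet1 all 10 differences were below 0, as were 47.3% over all genes, with a median of −0.22. The lowest p-value was that of Jak1, the kinase at the LIF receptor, at −0.47 (SE 0.15, adjusted p = 0.103). The receptor gene Lifr differed by −0.035 (adjusted p = 0.95). Gbx2, a homeobox target of STAT3, was called with the block at −0.91 (adjusted p = 0.00537, against 0.306 without). Against shScr it was at −0.83 in shTet2 (adjusted p = 0.479 without the block). Jak1 differed from shScr by 0.38 in shTet1 and by −0.086 in shTet2. The median of the 10 genes against shScr was 0.12 in shTet1 (6 higher) and −0.13 in shTet2 (8 lower).

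Of 12 other genes of the naive state, 1 was called in each comparison that involved shTet2. Dppa3 (Stella), a maternal factor that protects DNA from demethylation, was higher in shTet2 than in shScr by 1.41 (SE 0.29, adjusted p = 0.0372), with values of 9.27 to 10.41 against 7.74 to 9.5. It was the opposite direction to the members. The call was lost on median centring (adjusted p = 0.0699) and in 8 of the 10 fits that left out 1 library, all but those without shScr replicate 3 or shTet2 replicate 4 (highest adjusted p = 0.129). It was lost as well without the 4 libraries with a high receptor share (adjusted p = 0.0819). In shTet1 Dppa3 was at 9.28 to 10.10, 1.07 above shScr (adjusted p = 0.126 without the block and 0.0164 with it). Fgf4, the growth factor with which ESCs drive their own exit from the naive state, was lower in shTet2 than in shTet1 by 0.59 (SE 0.13, adjusted p = 0.0126), and the groups did not overlap (11.54 to 11.89 against 12.06 to 12.59). The call for Fgf4 held in all 10 fits without 1 library and without the 4 libraries (adjusted p = 0.0283). Against shScr (11.80 to 12.02), Fgf4 differed by 0.37 in shTet1 (limma adjusted p = 0.244) and by −0.22 in shTet2 (limma adjusted p = 0.556). With the block Dppa5a and Fbxo15 were called as well in shTet2 against shTet1. Against shScr, Dppa5a differed by 0.41 in shTet1 and −0.048 in shTet2, and Fbxo15 by −0.26 and 0.57. The median of the 12 genes was −0.048 between shTet2 and shScr and −0.14 between shTet2 and shTet1.

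Genes on the other side of the transition were counted in the same way. Of 8 repressors or exit factors, including Tcf7l1, Zfp281 and Nr6a1, none was called in any comparison. Nr6a1, an orphan receptor that represses Pou5f1 on differentiation, came nearest between shTet2 and shTet1 at 0.33 (SE 0.14, adjusted p = 0.242), and in shTet1 against shScr Zfp281 did at −0.25 (adjusted p = 0.474). Of 13 genes of the formative and primed epiblast, 2 were higher in shTet2 than in shTet1: Otx2, the homeobox factor that opens this programme, by 1.01 (SE 0.24, adjusted p = 0.0192), and Sox4 by 0.65 (SE 0.18, adjusted p = 0.0431). For Otx2 the groups met only at their edges (9.91 to 10.82 against 8.93 to 9.94), the differences were 0.97 in replicates 1 and 2 and 1.03 in replicates 3 to 5, and the call was lost without shTet2 replicate 1 or 2 (highest adjusted p = 0.0617) and without the 4 libraries with a high receptor share (adjusted p = 0.18). The call for Sox4 was lost on median centring (adjusted p = 0.108) and in 7 of the 10 fits without 1 library (highest adjusted p = 0.114), and without the 4 libraries (0.13). With the block, 3 genes of this list were higher and 1 lower (Cdh2, Otx2, Sox4 and Tcf15). None of the 13 was called against shScr without the block. Otx2 differed by 0.72 between shTet2 and shScr (limma adjusted p = 0.213 without the block and 0.00168 with it).

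Among 7 partners and targets of PRDM14, Fgfr1, the FGF receptor gene that PRDM14 is known to repress, was called in shTet2 against shTet1. It was lower by 1.13 (SE 0.20, adjusted p = 0.00304), with values of 8.49 to 9.62 against 9.72 to 10.33, and the call held in all 10 fits without 1 library and without the 4 libraries (adjusted p = 0.0487). Both Fgfr1 and Prdm14 were lower in shTet2, Prdm14 by the call with the block. With the block Dnmt3l, a cofactor of the de novo methyltransferases, was called as well. Without the block none of the 7 was called against shScr; Fgfr1 differed by −0.77 in shTet2 (adjusted p = 0.108) and Dnmt3l by −0.46 in shTet1 (adjusted p = 0.433).

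The 25 tested paralogs of the members, such as other Krüppel-like, T-box and PRDM genes, gave no call without the block and medians of 0.012, 0.0084 and 0.11 in the 3 comparisons. Yy2, a relative of Zfp42, came nearest in shTet1 against shScr at −0.59 (SE 0.18, adjusted p = 0.179) and Klf3 in shTet2 against shTet1 at −0.40 (SE 0.18, adjusted p = 0.30). With the block the calls were Yy2 in the former comparison and Klf3 and Klf10 in the latter.

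Markers of other cell types moved beside the members in part. The 11 measured markers of 2-cell-like cells, a rare ESC state that resembles the 2-cell embryo, summed to 660 to 965 RPM in shScr, 139 to 592 in shTet1 and 1295 to 2362 in shTet2. All 11 were called as higher in shTet2 than in shTet1 (median difference 2.17), with their reads shared among near-identical copies. None was called in shTet1 against shScr without the block (10 were called as lower with it), and 1, Tdpoz3 at 1.32 (adjusted p = 0.0485), was called in shTet2 against shScr. Of 18 primitive endoderm markers, 15 had a difference below 0 between shTet2 and shScr (median −0.53), as had 43.2% of all genes. Lower at an unadjusted p-value under 0.05 were 9 of the 18, where 3.58% of all genes were. None was called without the block. Pdgfra was at −0.95 (adjusted p = 0.0535), and the summed list spanned 819 to 1245 RPM in shScr and 810 to 1209 in shTet2. None of the 18 was called in shTet2 against shTet1 either, and 5 were with the block (1 higher, 4 lower). In trophoblast markers, 1 was higher and 1 lower in shTet2 than in shTet1 (Ascl2 at 0.88, adjusted p = 0.0312, and Eomes at −0.94, adjusted p = 0.0185), each call being lost in some fits without 1 library (highest adjusted p = 0.0937 and 0.0562) and without the 4 libraries (0.147 and 0.0556). With the block Krt7 was called there too, and Eomes in shTet1 against shScr at 0.80. Fibroblast, neural and mesoderm markers had 0 calls in each limma fit without the block. At an unadjusted p-value under 0.05, the 3 lists together had 2 genes in shTet1 against shScr (Map2 at 0.56 and Mixl1 at 0.48) and 1 in each other comparison (Thy1, at 0.71 in shTet2 against shScr, adjusted p = 0.127). With the block, 1 fibroblast marker, Acta2, was called in shTet2 against shTet1. The summed levels in shScr and shTet2 were 5.17 to 51.8 and 12.7 to 60.2 RPM for fibroblast markers and 3.22 to 9.06 and 5.75 to 13.2 for mesoderm markers. The part of any of these cell types in the members' differences was not tested.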

How the data were processed

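Total RNA depleted of rRNA was sequenced from 15 libraries of E14 ESCs, 5 per hairpin, grouped by the labels. The authors trimmed reads (Trim Galore 0.3.3), aligned them to mm9 (TopHat 2.0.9, keeping 1 position per read), counted them per gene in Seqmonk and applied the DESeq2 variance-stabilising transformation, so that the deposited values are on a log2 scale. Use of strand in the counting is not given in the sources used here. The transformation was inverted, which returned whole reads for 100% of values (tolerance 0.05), from which gene reads per library, normalised reads and levels per length were taken. The deposited table of repeat classes was not used.

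The limma package (3.58.1, R 4.3.3) was fitted to the deposited values (variance trend, group only, all 15 libraries), for the 19490 genes above the table minimum in at least 5 libraries, with Benjamini-Hochberg adjustment and a threshold of 0.05. Single members were also tested by two-sided exact permutation. The fit was run on simulated reads, drawn without the deviations that same-numbered libraries share and with changes larger than those of the members. That run cannot show how the fit does with such shared deviations or at differences as small as the members'. Exon lengths and positions are from GENCODE vM1 (mm9).

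Same-numbered libraries deviated together from their group means (r = 0.374 to 0.657 between shTet1 and shScr, 0.330 to 0.731 between shTet2 and shTet1), so the numbers were taken as pairs there. For shTet2 against shScr replicate 3 did not pass 0.1 (r = 0.0079), while the other numbers were at 0.40 to 0.77.

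The members and lists were chosen with earlier results of these data known. Named genes were the members, Tet1, Tet2, Pou5f1, Sox2 and Nanog, per list and comparison up to 2 called genes each way or, with none called, at most the gene with the lowest p-value, and the 3 genes most correlated with the members' mean (members and predicted genes aside, mean at least 4 units over the minimum). Lifr, Stat3, Gbx2, Dsg2, Arid5b, marker genes and genes called with the block were named after their values were seen. Of the listed genes 3 did not match the table (Tcstv1, Tcstv3 and Sox1). Alternatives were the filter, trend, groups fitted, scaling, pseudocount, weights, block and libraries left out.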

Additional observations from a re-analysis of the deposited data

How the results depend on the processing

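Of the members' differences, 48 alternative values had the opposite sign, none of them past the threshold. In shTet1 against shScr these were Klf2 at 0.39 in replicates 1 and 2 and 0.16 without the libraries apart in receptor share (−0.29 to 0.017 leaving out 1 library), Tfcp2l1 at 0.15 and Tbx3 at 0.11 in replicates 1 and 2, and Klf4 at −0.22, Klf5 at −0.15, Esrrb at −0.11 and Prdm14 at −0.025 in replicates 3 to 5 (Klf5 −0.15 to 0.28 leaving out 1). Zfp42 was at −0.033 on median centring with or without the block, −0.019 with array weights, −0.051 in replicates 1 and 2 and −0.054 without the receptor-share libraries (−0.053 to 0.10 leaving out 1). In shTet2 against shScr, Klf2 was at 0.013 and 0.014 with reads scaled by total gene reads at either pseudocount, 0.12 in replicates 3 to 5 and 0.092 without the receptor-share libraries (−0.27 to 0.093 leaving out 1), Klf5 at 0.013 and 0.014 on the same scales, 0.0083 with voom and 0.0027 without those libraries (−0.29 to 0.14 leaving out 1), and Esrrb at −0.22 to 0.014 leaving out 1. In shTet2 against shTet1, Klf2 was at −0.042 with array weights, −0.73 in replicates 1 and 2 and −0.067 without the receptor-share libraries (−0.14 to 0.23 leaving out 1), and Klf5, Esrrb and Tbx3 at 0.065, 0.051 and 0.44 in replicates 3 to 5 (Tbx3 −0.21 to 0.25 leaving out 1). The median of the members there was −0.75 in replicates 1 and 2. The cause of these sign changes was not tested.

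The number of members called was 0 in the fits without a block, except 1 with array weights in shTet2 against shTet1 (Prdm14, adjusted p = 0.0312). With the replicate block it was 1 there (Prdm14; also 1 with the block and only the groups compared, and 2 with the block and median centring, Nr5a2 being added). In shTet2 against shScr same-numbered libraries correlated at r = 0.0079 for replicate 3 and at 0.40 to 0.77 for the other numbers. Of these libraries 7 of 10 correlated best with their own number, as 7 of 10 did in shTet2 against shTet1. Between shTet2 and shScr the block called 2 members, Nr0b1 (adjusted p = 0.0229) and Nr5a2 (0.0403). With median centring it called 3 (Tfcp2l1 being added), and with only these groups 0. Beyond the members, the block called in that comparison Gbx2 (adjusted p = 0.0253) and Fgfr1 (0.0334) as lower, Otx2 (0.00168) as higher, 5 primitive endoderm markers as lower (Amn, Cubn, Dab2, Pdgfra and Sox7), and 5 of the 11 2-cell-like markers, Krt7 and Thy1 as higher. Leaving out 1 library called 0 members in each comparison without the block. The block changed no other call of a member.

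Counts over all genes moved by over 1.5 times as follows. In shTet1 against shScr (14 genes) they were 36 with a stricter filter, 3 with only the groups compared, 22 with quantile normalisation, 56 with array weights, 935 with the block, 390 with the block and only the groups compared, 839 with the block and median centring, 0 in replicates 1 and 2 and in replicates 3 to 5, 1 without the receptor-share libraries, and 1 to 171 leaving out 1 library. In shTet2 against shScr (76) they were 39 with median centring (5 higher and 34 lower), 45 with quantile normalisation, 41 with reads scaled by total gene reads at the smaller pseudocount, 283 with array weights, 840 with the block, 387 with the block and only the groups compared, 855 with the block and median centring, 0 in replicates 1 and 2, 1 in replicates 3 to 5, 13 without the receptor-share libraries, and 10 to 78 leaving out 1. In shTet2 against shTet1 (827) they were 1246 with array weights, 2178, 2443 and 2278 with the block in the same 3 forms, 0 and 143 in the sets of replicates, 345 without the receptor-share libraries, and 512 to 810 leaving out 1. Median centring lowered every difference between shTet2 and shScr by 0.11.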
